A study of Mus musculus with 10 samples.

Results

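Directed migration and survival of germ cells rest on 2 receptor and ligand pairs, *Kit* with *Kitl* and *Cxcr4* with *Cxcl12*, and these 4 genes were followed across cells derived from mouse embryonic stem cells (ESCs). All probe sets that the platform annotation gives to these genes were taken, 10 of 45101 on the array: 2 for *Kit*, 1 for *Cxcr4*, 4 for *Kitl* and 3 for *Cxcl12*. The study asked which transcripts set in vitro primordial germ cells (iPGCs) apart from the somatic cells around them and from the ESCs they come from. It hybridized 2 arrays for each of 5 sorted populations.

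Of these populations, 2 were iPGCs from embryoid bodies (EBs) at day 6 of differentiation in hanging drops. One was the Oct4-Gfp+/cKit bright fraction of an *Oct4-gfp* reporter line, for which the labels give a mixed genetic background. The other was the SSEA1+/cKit bright fraction of the V6.5 line, a 129xBL6 F1 line. Somatic cells were EB cells of the same lines on day 6, sorted as negative for the reporter and for cKit in the Oct4-Gfp line and as SSEA1-/cKit- in the V6.5 line. The last population held SSEA1+/cKit+ V6.5 ESCs taken on day 0 from culture on a fibroblast feeder layer. The Oct4-Gfp line has no ESC array here, so every comparison with ESCs is within V6.5. Each line is a single line, and line and sorting scheme cannot be told apart. No source used here says whether replicates came from separate differentiations, so p-values measure the spread between these arrays, which may be technical.

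The cKit antibody used for the sort recognizes the protein made from *Kit*. Differences in *Kit* between populations gated differently on cKit are therefore a description without a test. Only the comparisons of the 2 lines within one cell type were tested for this gene.

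*Kit* encodes a receptor tyrosine kinase on the surface of primordial germ cells, melanoblasts, mast cells and blood progenitors. Its ligand, the product of *Kitl*, is made by the cells along the migration path and in the gonad as a membrane-bound and as a shed protein, and germ cells of mice lacking either gene are lost early. *Cxcr4* encodes a G protein-coupled chemokine receptor, and *Cxcl12* its secreted ligand. In the mouse embryo, germ cells carrying the receptor colonize the gonads less well when the ligand is missing. *Cxcr4* is also transcribed in early mesoderm, endothelium and blood cells.

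The sequences just upstream of the start sites are given because the genes of a pair did not share a pattern across the populations. Each is the 250 bases before the start in the RefSeq promoter table on build GRCm38.p6, written along the gene's own strand, at chr5:75574737-75574986 (+) for *Kit*, chr1:128592300-128592549 (-) for *Cxcr4*, chr10:100015571-100015820 (+) for *Kitl* and chr6:117168285-117168534 (+) for *Cxcl12*. Capitals mark the GC box core GGGCGG and the TATA element TATAAA on either strand, and neighbouring matches can share bases.
Kit: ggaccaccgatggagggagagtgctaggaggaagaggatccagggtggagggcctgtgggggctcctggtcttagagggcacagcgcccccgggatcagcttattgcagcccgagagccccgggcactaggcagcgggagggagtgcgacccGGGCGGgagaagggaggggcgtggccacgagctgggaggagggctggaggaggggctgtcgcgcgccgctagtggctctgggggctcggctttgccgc
Cxcr4: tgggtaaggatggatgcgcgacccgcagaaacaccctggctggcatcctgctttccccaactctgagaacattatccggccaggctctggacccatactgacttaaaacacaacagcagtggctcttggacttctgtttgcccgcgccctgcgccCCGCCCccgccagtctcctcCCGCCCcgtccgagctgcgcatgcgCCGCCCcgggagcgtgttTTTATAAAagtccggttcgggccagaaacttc
Kitl: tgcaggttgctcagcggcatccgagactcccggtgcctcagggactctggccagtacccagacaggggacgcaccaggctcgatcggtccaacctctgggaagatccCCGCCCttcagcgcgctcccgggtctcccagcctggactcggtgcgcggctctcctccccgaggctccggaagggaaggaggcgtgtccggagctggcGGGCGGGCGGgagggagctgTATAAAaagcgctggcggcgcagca
Cxcl12: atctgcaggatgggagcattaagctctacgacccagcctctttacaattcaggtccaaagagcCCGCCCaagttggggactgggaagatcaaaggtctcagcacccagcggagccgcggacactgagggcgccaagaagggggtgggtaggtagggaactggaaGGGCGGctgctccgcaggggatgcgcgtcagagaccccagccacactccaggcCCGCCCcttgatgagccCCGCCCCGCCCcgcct

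All 4 windows were rich in G and C, at 70.8% for *Kit*, 61.2% for *Cxcr4*, 69.2% for *Kitl* and 64.4% for *Cxcl12*, against a median of 52.4% over the 32851 windows of the table. Each held the GC box core, 1 time in *Kit*, 3 times in *Cxcr4*, 3 times in *Kitl* and 5 times in *Cxcl12*, and 32.7% of all windows held it. TATAAA stood 30 bases before the *Cxcr4* start, overlapping a match on the other strand, and 25 bases before the *Kitl* start. It was in neither of the other windows and in 12.4% of all windows. The letters ACGTG, the core of a hypoxia element, were in 16.6% of all windows and in none of these 4. The table lists 2 starts for *Kit*, of which the first was taken. The motifs were chosen with the expression values known, and a match is a description of letters only.

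Values are signal intensities on a linear scale, with the same trimmed mean of 500 on every array. Between arrays, the median signal was 53.7 to 91.6. Background, taken as the 95th percentile of 44 olfactory receptor probe sets, was 12.6 to 25.4. Log2 differences were taken after adding 14.8 to the signal, which understates changes of dim probe sets. A probe set entered the test if it exceeded the median of its array on at least 2 arrays. This left 26368, 9 of them from these genes. Adjusted p-values are from limma with the Benjamini-Hochberg method over all 26368, and they were called under 0.05. A gene was represented by its tested probe set with the highest mean. Signals of different probe sets are not set against each other, since each binds its target with its own strength. In these bulk samples, fewer cells of a type and less RNA per cell cannot be told apart.

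Markers of the labelled cell types were read as summed signals, in which the brightest genes weigh most. The summed signal of 7 germ cell markers (*Prdm1*, *Prdm14* and others) was 24069 to 26424 in the 4 iPGC arrays, against 3624 to 4599 in the 4 somatic arrays and 18347 to 19886 in ESCs. *Prdm14* and *Dazl* were not above background on any somatic array. Of the 7, 3 were called higher in V6.5 iPGCs than in ESCs, where 17.3% of all genes tested were. The 6 pluripotency markers summed to 27773 to 30592 in iPGCs, 387 to 3581 in somatic cells and 37030 to 38024 in ESCs. They include *Pou5f1*, the gene of the Oct4 reporter by which the Oct4-Gfp populations were sorted. The ratio of 3' to 5' *Gapdh* signals, a sign of RNA quality and amplification, was 2.03 to 2.37 in Oct4-Gfp iPGCs and 1.51 to 1.63 in V6.5 iPGCs. In somatic cells it was 1.65 to 2.05, and in ESCs it was 1.28 to 1.30.

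*Kit* followed the sort. Probe set 1452514_a_at had 1810 and 1381 in Oct4-Gfp iPGCs and 1841 and 2072 in V6.5 iPGCs. It had 193 and 240 in Oct4-Gfp somatic cells and 134 and 261 in V6.5 somatic cells, and 701 and 627 in ESCs. The 3 cell types did not overlap: every iPGC array lay above both ESC arrays, and these above every somatic array. On the log2 scale iPGCs stood above somatic cells by 3.04 (8.21-fold) over both lines, by 2.79 in Oct4-Gfp cells and by 3.28 in V6.5 cells, and V6.5 iPGCs stood above ESCs by 1.54 (2.90-fold). *Kit* signal lay above the background on all 4 arrays of cells sorted as cKit-, and which of the sorted cells gave it was not tested. Within V6.5 the 2 somatic arrays differed, and the difference between iPGCs and somatic cells was 2.84 without the first and 3.73 without the second.

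The second *Kit* probe set, 1415900_a_at, gave the same order. It had 396 and 313 in Oct4-Gfp iPGCs and 659 and 735 in V6.5 iPGCs, against 45.1 and 44.4 in Oct4-Gfp somatic cells, 56.9 and 96.7 in V6.5 somatic cells, and 274 and 304 in ESCs. Oct4-Gfp iPGCs were lower than V6.5 iPGCs on both probe sets. The difference was -0.30 on the log2 scale on 1452514_a_at (SE 0.28, 95% interval -0.96 to 0.35, adjusted p = 0.565, limma) and -0.95 on 1415900_a_at (SE 0.22, 95% interval -1.46 to -0.45, adjusted p = 0.0873), and neither passed the test. Between the somatic lines the difference was 0.19 (adjusted p = 0.822) and -0.59 (adjusted p = 0.349). The 3' to 5' *Gapdh* ratio was higher in Oct4-Gfp iPGCs than in V6.5 iPGCs, and its part in this and the other differences between the iPGC lines was not tested. The gates for cKit bright were the same in name, but the accompanying markers were the reporter in one line and SSEA1 in the other.

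**Figure D1:**
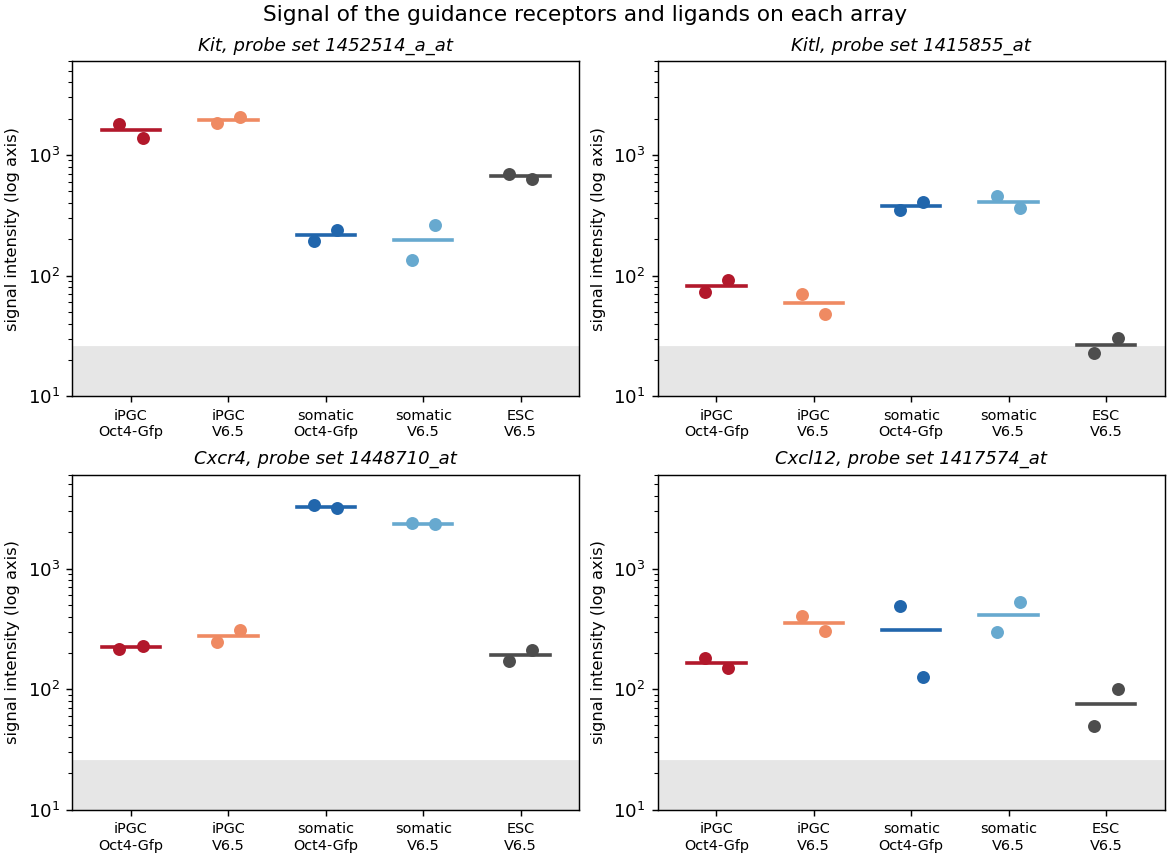
Signal intensity (log axis) of the main probe set of each gene on each array, by population, with 2 points per population, a bar at the mean of the pair and grey up to the highest background of any array. *Kit* is highest in the iPGC arrays (1381 to 2072), *Cxcr4* and *Kitl* in the somatic arrays (2320 to 3350 and 353 to 453), and *Cxcl12* overlaps between iPGCs and somatic cells.

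*Cxcr4*, the other receptor, was lower in iPGCs than in the somatic cells, where it was highest. Its single probe set, 1448710_at, had 217 and 228 in Oct4-Gfp iPGCs and 246 and 308 in V6.5 iPGCs. It had 3350 and 3182 in Oct4-Gfp somatic cells, 2400 and 2320 in V6.5 somatic cells, and 172 and 212 in ESCs. Every iPGC array lay below every somatic array, and all arrays were above background. The iPGC signal was 3.45 to 4.25 times the median of its array. *Cxcr4* averaged 249.6 ± 40.8 in iPGCs and 2813 ± 529 in somatic cells (SD, n = 4 each).

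Over both lines *Cxcr4* was lower in iPGCs than in somatic cells by a log2 difference of -3.41 (SE 0.11, 10.6-fold, adjusted p = 3.23e-07, limma). In the same comparison *Kitl* also was lower and *Cxcl12* did not pass, so 2 of these 3 genes were called lower, where 31.4% of all probe sets tested were. The *Cxcr4* difference was -3.79 in the Oct4-Gfp line (SE 0.16, 13.8-fold, adjusted p = 3.64e-06), where again 2 of 3 were called lower and 27.6% of all probe sets were. It was -3.03 in the V6.5 line (SE 0.16, 8.19-fold, adjusted p = 7.06e-06), with 2 of 3 called lower and 23.2% of all. Leaving out any single array kept the both-line difference between -3.49 and -3.33.

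The lines lay apart in both cell types. Oct4-Gfp somatic arrays lay above the V6.5 somatic arrays (log2 difference 0.47, 95% interval 0.10 to 0.83, adjusted p = 0.311, limma), and Oct4-Gfp iPGCs lay below V6.5 iPGCs (-0.29, 95% interval -0.65 to 0.07, adjusted p = 0.325). The test of the difference between the lines gave -0.76 (SE 0.22, 95% interval -1.27 to -0.24, adjusted p = 0.352). None of these passed. No probe set at all passed between the iPGC lines (0% of those tested, with 5527 at an unadjusted p under 0.05 and 932 called by limma-trend). Between the somatic lines 0.0834% passed, and for the difference between lines 0.0152% did.

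Against ESCs the *Cxcr4* level of V6.5 iPGCs was slightly higher. The log2 difference was 0.49 (SE 0.16, 95% interval 0.13 to 0.86, 1.41-fold) with an adjusted p of 0.0507 in limma, just outside the threshold. It fell inside with limma-trend (0.0376), with a stricter filter (0.0415) and without the first V6.5 iPGC array (0.0407). V6.5 somatic cells were far above ESCs, by 3.53 (SE 0.16, 11.5-fold, adjusted p = 2.44e-06).

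Markers of other cell types were read beside *Cxcr4*. The summed signal of 13 endothelium and blood markers was 688 to 895 in iPGCs, against 5148 to 6329 in Oct4-Gfp somatic cells, 15804 to 18941 in V6.5 somatic cells and 743 to 763 in ESCs. *Emcn*, *Tal1*, *Ptprc*, *Hbb-bh1* and *Hba-x* were not above background on any iPGC array, and *Emcn* was not on any somatic array either. Of the 8 tested, 1 was called higher in iPGCs over both lines, though not in the Oct4-Gfp line alone. The other 7 were lower, where 33.7% of all genes tested were higher and 29.8% lower. *Tal1* and *Gata1* are among the 7 and passed the low-signal filter only through the somatic arrays, so the count is no support. The 7 mesoderm and heart markers summed to 630 to 1224 in iPGCs, 18721 to 20150 in somatic cells and 577 to 598 in ESCs. The sum of 5 definitive endoderm markers, at 3139 to 4176 in iPGCs, 416 to 905 in somatic cells and 2318 to 2632 in ESCs, was nearly all *Cldn6* (3046 to 4114 in iPGCs), which pluripotent cells also express. *Sox17*, another of them, lay at 9.87 to 56.3 in iPGCs, against 82.8 to 221 in somatic cells and 9.72 to 16.3 in ESCs. *Cer1* ran the other way, at 22.1 to 43.8 in iPGCs and 6.3 to 21.7 in somatic cells. It was above background on all 4 iPGC arrays, on 2 somatic arrays and on no ESC array, and was too dim to be tested. The ranges of *Foxa2* and *Gsc* overlapped between iPGCs and somatic cells. Between the somatic lines the blood and endothelium sum was lower in Oct4-Gfp cells, whereas *Cxcr4* was higher there. The mesoderm and heart sum was lower there too, at 18721 to 19350 against 19768 to 20150 in V6.5 somatic cells. By gene it went the other way: the 6 mesoderm and heart markers tested had a median log2 difference of 0.31, Oct4-Gfp minus V6.5. None of these 6 was called. For the 8 endothelium and blood markers tested, the median was -0.93. The part of these cell types in the *Cxcr4* level was not tested.

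*Kitl*, the ligand of Kit, was highest in somatic cells in both lines. Probe set 1415855_at had 72.8 and 92.0 in Oct4-Gfp iPGCs and 70.0 and 48.0 in V6.5 iPGCs. It had 353 and 404 in Oct4-Gfp somatic cells, 453 and 361 in V6.5 somatic cells, and 22.8 and 30.6 in ESCs. The 3 cell types did not overlap, with somatic arrays on top and ESCs close to the background.

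The iPGC level of *Kitl* was lower than the somatic one by a log2 difference of -2.27 over both lines (SE 0.15, 4.82-fold, adjusted p = 6.36e-06, limma), by -2.02 in the Oct4-Gfp line (4.05-fold, adjusted p = 0.000156) and by -2.52 in the V6.5 line (5.74-fold, adjusted p = 5.17e-05). No difference between the lines passed, in iPGCs (0.41, 95% interval -0.07 to 0.88, adjusted p = 0.302) or in somatic cells (-0.10, 95% interval -0.57 to 0.38, adjusted p = 0.884). V6.5 somatic cells stood 3.34 above ESCs (SE 0.21, 10.1-fold, adjusted p = 9.53e-06). There all 3 genes tested were called higher, where 30.1% of all probe sets were.

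*Kitl* was also higher in V6.5 iPGCs than in ESCs, by 0.82 (SE 0.21, 1.77-fold, adjusted p = 0.0232, limma). In this comparison 2 of 3 genes were called higher, *Kitl* and *Cxcl12*, and 15.6% of all probe sets were. Counted by probe set, 3 of the 7 tested for these 3 genes were called. The others were *Kitl* 1426152_a_at (adjusted p = 0.0877), *Kitl* 1448117_at (0.142), *Cxcr4* 1448710_at (0.0507) and *Cxcl12* 1448823_at (0.0765). The call for *Kitl* was lost under quantile normalization (0.67, adjusted p = 0.11), with only the arrays compared (adjusted p = 0.0769), and without the first V6.5 iPGC array or either ESC array (0.60 to 0.96, adjusted p 0.0594 to 0.12). Fibroblasts are a known source of this ligand, and ESCs were grown on them. In the paper's methods, feeder cells were depleted by plating before EBs were made. The 11 fibroblast markers summed to 433 to 742 in iPGCs, 8391 to 13742 in somatic cells and 957 to 1174 in ESCs. These sums cannot tell feeder cells from cells formed in the EBs, and the part of either in the *Kitl* level was not tested.

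The other *Kitl* probe sets gave the same order of means, ESCs lowest and somatic cells highest. Probe set 1448117_at had 49.8 and 50.7 in Oct4-Gfp iPGCs and 54.9 and 29.3 in V6.5 iPGCs, against 184 and 192 in Oct4-Gfp somatic cells, 231 and 304 in V6.5 somatic cells and 22.7 and 26.9 in ESCs. On 1415854_at iPGCs lay at 36.4 to 45.2, somatic cells at 138 to 186 and ESCs at 15.8 to 25.9. On 1426152_a_at iPGCs lay at 18.7 to 34.0, somatic cells at 82.8 to 160 and ESCs at 13.4 to 21.2, so that iPGC and ESC arrays overlapped there. These 3 probe sets passed the filter only through the somatic arrays, so they had to differ and add no support to the call. Their log2 differences between iPGCs and somatic cells over both lines ran from -1.99 to -1.65.

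**Figure D2:**
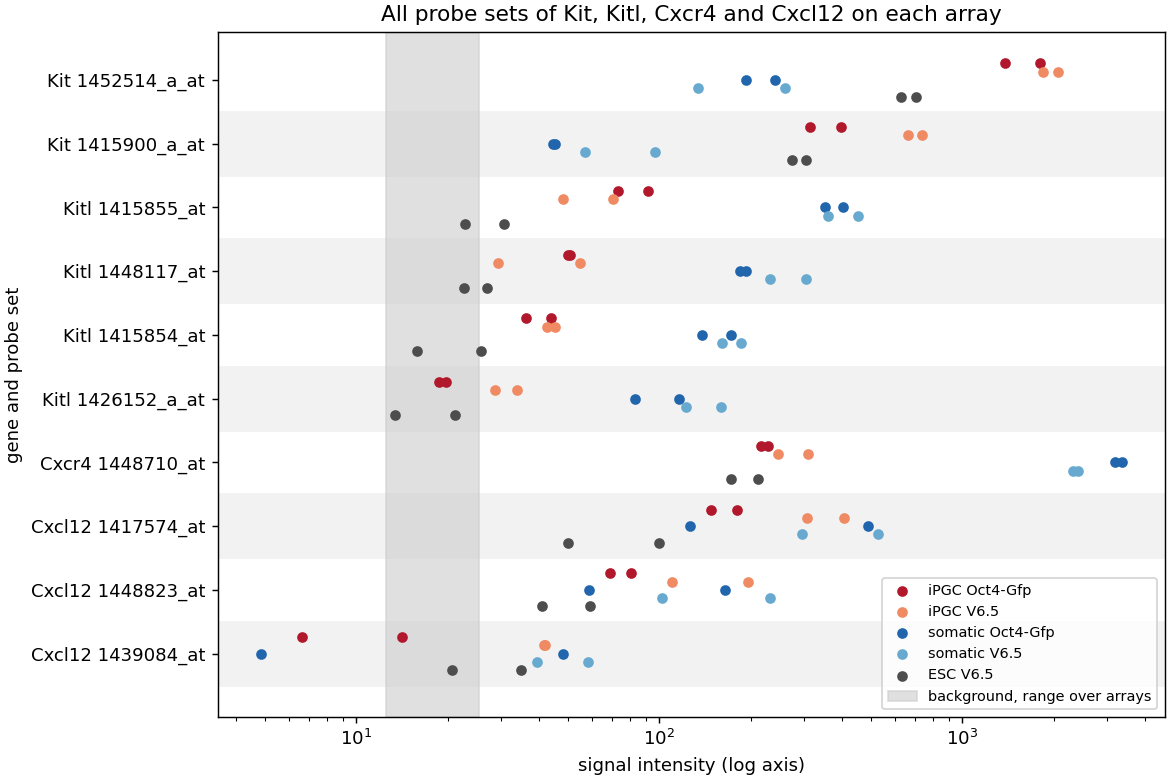
Signal intensity (log axis) of all 10 probe sets on each of the 10 arrays, coloured by population, with the range of background over the arrays in grey. On the 4 *Kitl* probe sets every somatic array lies above every iPGC and ESC array, and *Cxcl12* probe set 1439084_at is not above the background of its array in both Oct4-Gfp iPGC arrays and in 1 Oct4-Gfp somatic array.

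*Cxcl12*, the ligand of Cxcr4, did not separate iPGCs from somatic cells. Probe set 1417574_at had 181 and 148 in Oct4-Gfp iPGCs and 405 and 306 in V6.5 iPGCs. It had 490 and 126 in Oct4-Gfp somatic cells, 295 and 526 in V6.5 somatic cells, and 49.9 and 99.6 in ESCs. The iPGC and somatic arrays overlapped in both lines, and only the ESC arrays lay below all others.

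Over both lines the difference between iPGCs and somatic cells was -0.37 (SE 0.40, 95% interval -1.30 to 0.56, adjusted p = 0.465, limma). It was -0.58 in Oct4-Gfp cells (95% interval -1.89 to 0.74, adjusted p = 0.436) and -0.16 in V6.5 cells (95% interval -1.47 to 1.16, adjusted p = 0.843). The values over both lines and in the Oct4-Gfp line turned on the Oct4-Gfp somatic pair. Without its second array the difference was -0.83 over both lines (adjusted p = 0.042) and -1.50 in the Oct4-Gfp line (adjusted p = 0.0323), both past the threshold, and without its first array it was 0.094 (adjusted p = 0.804) and 0.35 (adjusted p = 0.582), of the opposite sign. On the second array the 6 pluripotency markers summed to 3581 and the 11 fibroblast markers to 8391, against 1431 and 10209.7 on the first Oct4-Gfp somatic array. The 6 visceral endoderm markers summed to 461 on the second array and 1059 on the first. The 3' to 5' *Gapdh* ratio was 2.05 on the second array and 1.65 on the first. On the first and second V6.5 somatic arrays, the visceral endoderm markers summed to 523 and 1125. The pluripotency markers summed to 387 and 902 there, and the fibroblast markers to 13476 and 13742. The part of the markers and of the *Gapdh* ratio was not tested.

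V6.5 iPGCs exceeded ESCs by 2.09 for *Cxcl12* (SE 0.57, 4.27-fold, adjusted p = 0.0299, limma). V6.5 somatic cells exceeded ESCs by 2.25 (SE 0.57, 4.76-fold, adjusted p = 0.0103). On the other tested probe set, 1448823_at, the difference of iPGCs to ESCs was 1.35 and did not pass (2.54-fold, adjusted p = 0.0765), and that of somatic cells was 1.41 (adjusted p = 0.0388). The call for iPGCs was lost without any one of the 4 arrays compared (1.68 to 2.50, adjusted p 0.0635 to 0.146) and without the filter on low signals (adjusted p = 0.0518). The call for somatic cells was lost without the first ESC array (1.84, adjusted p = 0.0663) or the second V6.5 somatic array (1.85, adjusted p = 0.0667).

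The lines differed in their *Cxcl12* values without passing the test. Both Oct4-Gfp iPGC arrays lay below both V6.5 iPGC arrays, by -1.04 on the log2 scale (SE 0.57, 95% interval -2.35 to 0.28, adjusted p = 0.333, limma). Probe set 1448823_at gave the same order, with 80.7 and 68.9 in Oct4-Gfp iPGCs against 197 and 110 in V6.5 iPGCs, a log2 difference of -0.86 (adjusted p = 0.349). On it somatic cells had 164 and 58.5 in the Oct4-Gfp line and 102 and 232 in the V6.5 line, and ESCs had 40.9 and 58.8.

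The third *Cxcl12* probe set, 1439084_at, was too dim to be tested. It had 14.2 and 6.6 in Oct4-Gfp iPGCs, within the background on both arrays, against 42.0 and 41.4 in V6.5 iPGCs. Set against the background, the Oct4-Gfp level was at least 2.43-fold lower. It had 47.9 and 4.83 in Oct4-Gfp somatic cells, 39.5 and 58.3 in V6.5 somatic cells, and 20.6 and 34.9 in ESCs. The second Oct4-Gfp somatic array was thus the lowest somatic array on each of the 3 probe sets.

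**Figure D3:**
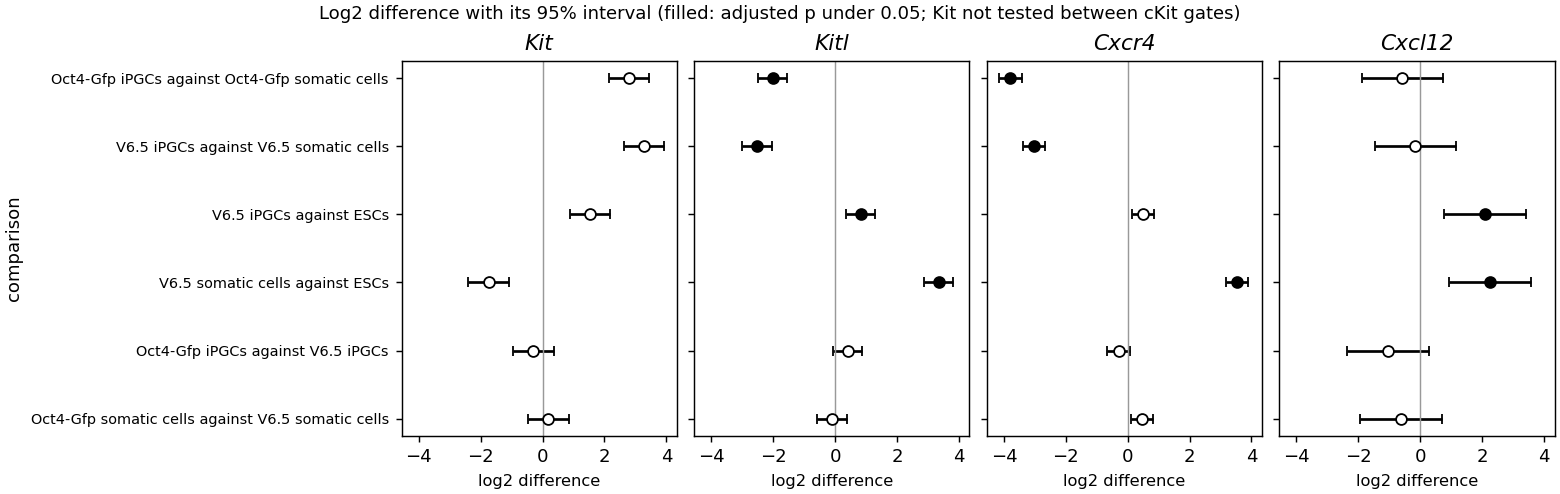
Log2 difference of each gene's main probe set (points) with its 95% interval (bars) in 6 comparisons, where filled points have an adjusted p under 0.05 and *Kit* was tested only between lines. *Cxcr4* and *Kitl* lie to the left of 0 in iPGCs against somatic cells in both lines, at -3.79 and -3.03 and at -2.02 and -2.52, and the *Cxcl12* intervals there span 0.

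Set side by side, the pairs had different layouts. For *Kit* and *Kitl* the receptor was highest in iPGCs and the ligand in somatic cells from day 6 EBs in both lines. The order of *Kit* was set by the cKit gates, so it is no support for a contrast between the receptors. For *Cxcr4* and *Cxcl12* the receptor was highest in somatic cells, and the ligand was above background in iPGCs and somatic cells with arrays that overlapped. Within V6.5, ESCs had intermediate *Kit* and the lowest means of *Kitl*, *Cxcr4* and *Cxcl12* of the 3 cell types, and their *Cxcr4* did not pass the test against iPGCs. Over the 10 arrays, which share the 5 populations, Pearson's r on the log2 scale was -0.783 between *Kit* and *Kitl* and 0.503 between *Cxcr4* and *Cxcl12*. It was 0.953 between *Kitl* and *Cxcr4* and -0.871 between *Kit* and *Cxcr4*. These are descriptions that mainly restate the order of the populations.

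The genes around the Kit receptor were read from lists of the pathway. All counts and differences from here on are for iPGCs against somatic cells over both lines, where 33.7% of the 12207 genes tested were higher and 29.8% lower, with a median log2 difference of 0.07. Of 6 tested relatives of *Kit* and their ligands, 1 was higher and 5 lower, but *Csf1* and *Pdgfb* among the 5 passed the low-signal filter only through the somatic arrays, so they had to come out lower and the count is no support. The receptors *Pdgfra* and *Pdgfrb* were lower by -5.35 (adjusted p = 2.03e-07, limma) and -4.68 (adjusted p = 6.09e-07). *Csf1*, the ligand of the receptor of macrophages, had 34.2 ± 11.0 in iPGCs and 744 ± 234 in somatic cells (SD, n = 4 each). *Pdgfa*, a ligand of *Pdgfra*, ran the other way, with 2336 ± 145 in iPGCs and 1019 ± 196 in somatic cells (log2 difference 1.21, adjusted p = 0.000153).

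Of 26 tested genes that carry or curb the signal inside the cell, 5 were higher and 14 lower (median -0.47). Under median centring of the arrays 9 of them were lower. The adaptor *Grb7* and the phosphatase *Ptpn6*, which dampens Kit signalling, were higher in iPGCs by 2.17 and 2.06 (adjusted p = 2.64e-05 and 1.17e-06, limma). The kinase subunit *Pik3cd* was higher by 1.40. The adaptor *Grb10* had 1481 ± 350 in iPGCs and 8498 ± 514 in somatic cells (log2 difference -2.54, adjusted p = 9.46e-06), and *Stat5b* and the ubiquitin ligase *Cblb* were lower by -1.88 and -1.28. *Grb7* and *Ptpn6* were at similar levels in ESCs, at 1215 and 456, to those in iPGCs, at 1309 and 488.

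Of 10 tested genes for the shedding of the ligand and for *Kit* transcription, 4 were higher and 5 lower, but *Tal1*, *Lmo2*, *Gata1* and *Adam33*, 4 of the 5, passed the filter only through the somatic arrays, so they had to come out lower. Higher in iPGCs were 3 transcription factors known to act on *Kit* in blood, mast or pigment cells: *Myb* by 2.74 (adjusted p = 2.29e-05, limma), *Gata2* by 1.63 (adjusted p = 0.000661) and *Mitf* by 1.29 (adjusted p = 0.000392). *Myb* had 1366 ± 255 in iPGCs, 208 ± 98.6 in somatic cells (SD, n = 4 each) and 825 in ESCs. *Tal1*, a blood factor also among the endothelium and blood markers, was within the background on all 4 iPGC arrays and at 571 ± 289 in somatic cells, at least 28.3-fold lower in iPGCs. Its partner *Lmo2* had a log2 difference of -2.91. *Mmp9*, a protease that releases the soluble ligand in bone marrow, was lower by -2.62. Markers of mast cells and melanoblasts, other cells that carry Kit, were mostly at the background: of 7, *Cpa3*, *Mcpt4*, *Fcer1a*, *Tyr* and *Dct* were not above it on any iPGC array. The mast cell protease gene *Tpsb2*, at 20.4 to 44.9, and the melanosome gene *Pmel* were above it on all 4. *Pmel* had 64.8 to 172 in iPGCs, 43.0 to 58.7 in somatic cells and 182 to 279 in ESCs, and it was higher in iPGCs than in somatic cells by 0.77 (adjusted p = 0.00649, limma). In the Oct4-Gfp line alone *Pmel* was not called (0.52). The part of such cells in the *Kit* level was not tested.

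Around *Cxcl12*, 8 genes were tested, and 3 were higher and 3 lower (median -0.57). *Ackr3*, which encodes a scavenger receptor that binds and removes the ligand, resembled *Cxcr4*, with 397 ± 54.1 in iPGCs, 4111 ± 349 in somatic cells (SD, n = 4 each) and 161 ± 21.9 in ESCs (SD, n = 2). It was lower in iPGCs by -3.33 (SE 0.11, adjusted p = 3.84e-07, limma). The proteases *Mmp2* and *Mmp14*, which can cut the ligand, were lower by -3.58 and -2.91. *Sdc4*, a surface proteoglycan, *Dpp4*, a protease that inactivates the ligand, and *Mif*, another ligand of the receptor, were higher by 1.71, 0.91 and 0.38. By line, *Dpp4* did not pass in V6.5 (0.42, adjusted p = 0.0596, limma) and *Mif* did not in Oct4-Gfp (0.25, adjusted p = 0.213). Both had their highest means in ESCs, at 152 and 9206.

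Downstream of *Cxcr4*, 4 of 20 tested genes were higher and 9 lower (median -0.32), and 7 were lower under median centring. The kinase *Ptk2b* had 381 ± 101 in iPGCs, 36.1 ± 18.0 in somatic cells and 605 ± 25.4 in ESCs, a log2 difference of 2.98 to somatic cells (adjusted p = 2.12e-05, limma). The arrestins, which end signalling of such receptors, parted: *Arrb2* was higher by 1.31 (adjusted p = 2.71e-05) and *Arrb1* lower by -2.21 (adjusted p = 2.70e-05). The regulator *Rgs3* and the kinase *Grk3* were lower by -2.34 and -1.48, and *Elmo1* was higher by 0.76. In the Oct4-Gfp line alone *Elmo1* did not pass (0.47, adjusted p = 0.103, limma).

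Few other chemokine genes passed the filter. Of 20 other receptors listed, 3 were tested. *Ccr7* and *Ackr1* had log2 differences of -2.39 and -1.44, and *Ackr4* was lower by -0.46, a call that it lost under median centring (-0.25, adjusted p = 0.18). Of 29 other ligands listed, 7 were tested and 6 were lower (4 lower and 1 higher under median centring), among them *Ccl2* with 30.4 ± 20.3 in iPGCs and 434 ± 216 in somatic cells (log2 difference -3.30). *Ccl17* and *Cx3cl1* had log2 differences of -2.06 and -1.48. *Ccr7*, *Ackr1*, *Ccl2*, *Ccl17* and *Cx3cl1* passed the filter only through the somatic arrays, so they had to come out lower and these counts are no support. Called genes stood on both sides inside the Kit pathway (5 higher and 14 lower) and downstream of *Cxcr4* (4 higher and 9 lower). The plot of pathway genes draws from both sides by its selection, so it does not show their balance.

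**Figure D4:**
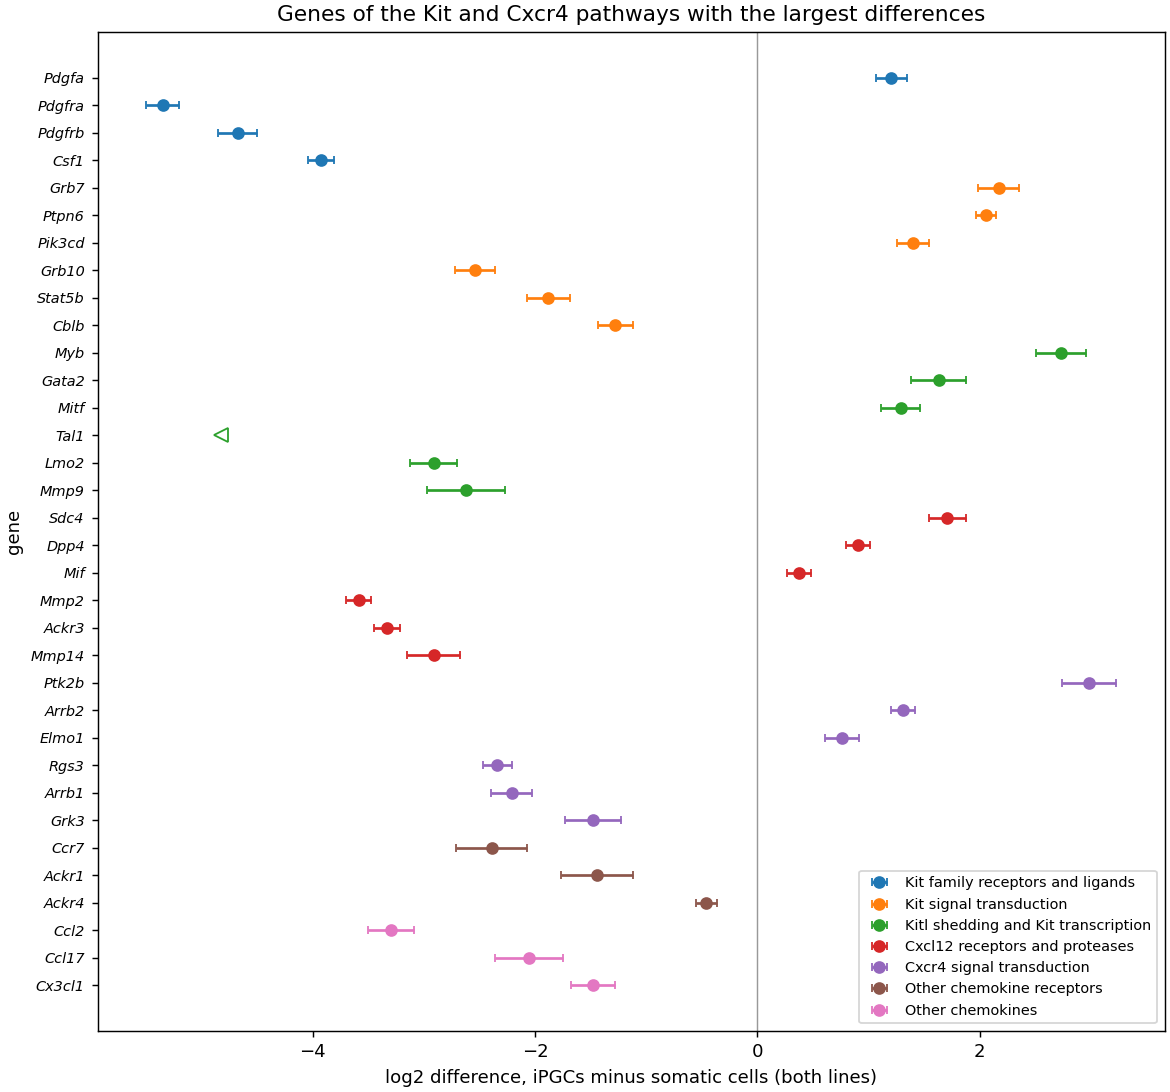
Log2 difference of iPGCs minus somatic cells over both lines (points, with the SE as bars) for up to 3 genes in each direction with the largest differences in each of 7 pathway lists. The *Tal1* triangle marks a bound of at least 28.3-fold lower, since its iPGC arrays lay within the background, and the genes run from *Pdgfra* at -5.35 to *Ptk2b* at 2.98.

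The genes whose pattern over the 10 arrays was most like that of each member were ranked by Pearson's r on the log2 scale. For *Kit* they were *Platr22* (0.995), *Rrp15* (0.992), *Prdm1* (0.990), *Actn2* (0.988) and *Pla1a* (0.988). *Prdm1*, which encodes the germ cell determinant Blimp1, had 925 ± 179 in iPGCs, 58.4 ± 23.1 in somatic cells (SD, n = 4 each) and 310 ± 24 in ESCs (SD, n = 2), the same order as *Kit*. For *Kitl* they were *Stard8* (0.997), *Spsb4* (0.997), *Snai2* (0.996), *Sh3bgrl* (0.995) and *Tcaf1* (0.994). *Snai2*, a factor of mesenchymal cells, had 171 ± 84.1 in iPGCs, 6416 ± 835 in somatic cells and 17.3 ± 1.86 in ESCs.

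For *Cxcr4* the closest were *Hoxb3* (0.997), *6330403K07Rik* (0.995), *Ano1* (0.994), *Mef2c* (0.994) and *Pgap4* (0.993). *Hoxb3*, a homeobox gene of the body axis, had 16.6 ± 5.78 in iPGCs, above background on 1 of 4 arrays, and 647 ± 93.4 in somatic cells. *Mef2c*, a factor of heart and vessels, was within the background on all iPGC and ESC arrays and at 145 ± 23.0 in somatic cells. *Cxcl12* had looser neighbours, *Fam222b* (0.942), *Cadm1* (0.942), *Chd3* (0.918), *Sox13* (0.909) and *Ifi27l2b* (0.899). None of these 5 was called between iPGCs and somatic cells over both lines, with adjusted p from 0.0612 to 0.950 in limma, and each was lowest in ESCs. With 5 populations of 2 arrays, such correlations follow any gene that separates the populations in the same way.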

How the data were processed

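Total RNA of sorted cells was amplified and hybridized to 10 Affymetrix Mouse Genome 430 2.0 arrays. What the authors deposited is a linear signal intensity per probe set, made with MAS5 per the submitters' processing notes, with a trimmed mean of 500 (2% left out at each end), whereas the methods of the paper name D-Chip, whose values were not used here. MAS5 subtracts background on each array, so low signals are noisy and the scaling assumes equal totals. The 64 control probe sets were left out of the tests. Symbols came from the platform annotation (34945 probe sets with 1 symbol, 932 with several, 9211 with none). Probe sets ending in _s_at or _x_at, among them those named for *Ackr3*, *Arrb2*, *Grk3*, *Myb* and *Snai2*, can bind related transcripts. The day of differentiation and the brightness of the cKit gate come from the paper's methods.

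The log2 of the signal plus 14.8 (the 25th percentile of the table) entered a linear model (limma 3.58.1, R 4.3.3) with 5 groups and 5 residual and 2.92 prior degrees of freedom, in 8 comparisons. The fit was tested on simulated data. The number of arrays limits the precision. Where a group lay within the background on every array, a fold is given as a bound against that background. Lists (7 of pathways, 8 of cell markers) are described by counts and medians, with no set test. Named were all probe sets of the members, up to 3 genes per direction of each pathway list with the largest called difference, and the 5 genes closest to each member. A gene was added to these where a marker or a motif needed it. The members and lists were chosen with earlier results of these data known. Alternatives were a floor, a doubled offset, no filter or a stricter one (5 arrays), quantile normalization, median centring, only the arrays compared, limma-trend, the replicate block, the mean over a gene's probe sets, and each array left out. Promoter windows came from RefSeq (GRCm38.p6), and all 4 genes matched by symbol. Python 3.11.15 and matplotlib 3.10.9 were used.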

Additional observations from a re-analysis of the deposited data

How the results depend on the processing

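The 4 genes in 8 comparisons gave 32 results, each recomputed under 20 alternatives. Of these 640 values, 12 had the opposite sign, all of them of differences not called in either setting. The calls for *Cxcr4* and *Kitl* between iPGCs and somatic cells, over both lines and in each line, and between V6.5 somatic cells and ESCs held under all 20. For *Cxcr4* in V6.5 iPGCs against ESCs, the difference passed the test when low signals were set to a floor instead (0.53), a stricter filter (0.49), limma-trend (0.49) and the mean over probe sets (0.49), and leaving out an array gave 0.34 to 0.65. For *Kitl* in the same comparison the call was lost under quantile normalization (0.67), median centring (0.66) and only the arrays compared (0.82), and leaving out an array gave 0.60 to 1.04. For *Cxcl12* in the same comparison it was lost with no filter (2.09), and leaving out an array gave 1.68 to 2.50. In V6.5 somatic cells against ESCs the *Cxcl12* range was 1.84 to 2.66. In iPGCs against somatic cells it was -0.83 to 0.094 over both lines and -1.50 to 0.35 in the Oct4-Gfp line. Median centring gave 3.24 for *Kit* in Oct4-Gfp iPGCs against somatic cells and -0.019 for its difference between lines. Leaving out an array gave *Kit* ranges of 2.84 to 3.73 in V6.5 iPGCs against somatic cells, -2.19 to -1.30 in V6.5 somatic cells against ESCs and -0.93 to -0.045 for the difference between lines. The causes were not tested. Median centring moved the median of all probe sets tested in the Oct4-Gfp comparison of iPGCs with somatic cells to 0.34, against -0.11 as deposited.

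With the replicate number as a block, 5 probe sets passed between the somatic lines and 0 in the difference between lines, against 22 and 4 without it, and no call of the 4 genes changed. The numbers do not pair the arrays: of 10 pairs of groups, 2 had deviations correlated above 0.1 (range -0.292 to 0.262). Over all alternatives 2939 to 8604 probe sets passed in V6.5 iPGCs against ESCs, 0 to 932 between the iPGC lines, 0 to 64 between the somatic lines and 0 to 24 in the difference between lines. Dim signals near the background limit *Kitl* in ESCs and *Cxcl12* probe set 1439084_at, and 2 arrays per population limit every comparison.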
